A study of Mus musculus with 6 samples.

Results

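*Msln* encodes mesothelin, a glycoprotein of the cell surface, and is 1 of the 22601 genes counted in RNA of mouse osteoclasts with and without *Slc37a2*. It was chosen by its own values in the comparison of *Slc37a2* KO with WT libraries, where it is more abundant in the *Slc37a2* KO group. Those values are therefore given as a description, without a test. The 6 libraries come from 3 WT and 3 *Slc37a2* KO animals, and ask how osteoclasts that lack the sugar transporter Slc37a2 differ in gene expression. Labels give the cells as osteoclasts grown from bone marrow macrophages, with RANKL at 10 ng/ml and M-CSF at 2 ng/ml for 5 days, after upkeep of the macrophages in M-CSF at 2 ng/ml. The RNAseq methods of the study instead describe RNA of whole femurs and tibias from male and female mice. Its culture methods state a higher concentration of M-CSF for the macrophages than the labels do. The knockouts were homozygous for *Slc37a2* tm2a(KOMP)Wtsi, an allele made in 1 ES cell clone and kept on a C57BL/6N background, and WT littermates were the controls. In the count table, each column is headed by genotype, animal number, the letter F and 11 weeks as the age.

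Mesothelin is made as a precursor that the protease furin cleaves. The released part is megakaryocyte potentiating factor, and the remainder stays on the membrane through a glycosylphosphatidylinositol (GPI) anchor, where it can bind the mucin Muc16. The gene is best known from the mesothelium that lines the pleura, pericardium and peritoneum and from tumours such as mesothelioma. It is not among the usual markers of osteoclasts, the multinucleated cells that resorb bone.

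Libraries are called by animal number, and wherever 3 values are given for a group they stand in the order K090, L080, L082 for WT and K089, L078, L081 for *Slc37a2* KO. The WT libraries totalled 39250356, 27552183 and 31396766 counts, and those of *Slc37a2* KO 29279260, 42522292 and 29663713. TMM scaling was applied to library sizes, and levels are counts per 1000000 counts of the scaled size (CPM) unless another scale is named. The knocked-out gene followed the labels. *Slc37a2* had 1857, 2151 and 2440 CPM in WT, against 45.3, 32.1 and 36.9 CPM in *Slc37a2* KO. It was the 1 gene of 13483 tested that passed both thresholds in edgeR's quasi-likelihood test (an adjusted p under 0.05 with a log2 fold change beyond 1.5 in size), which is 0.00742% of genes. *Msln* was not called. With 0.00742% of all genes called, a count of 0 called in a list below says little about that list.

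The libraries did not divide by genotype as a whole. Over all genes, *Slc37a2* KO libraries K089 and L081 were the most alike pair, at 7.19 for the chi-square divided by its degrees of freedom. *Slc37a2* KO library L078 was nearer to WT libraries L080 (20.8) and K090 (27.4) than to *Slc37a2* KO libraries L081 (97.0) and K089 (122). For this reason the *Msln* values below are also given without single libraries.

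*Msln* had 1115, 1159 and 1147 counts in WT, and 1763, 2062 and 1897 counts in *Slc37a2* KO. In CPM the WT libraries held 27.3 (K090), 41.0 (L080) and 36.8 (L082), and the *Slc37a2* KO libraries 64.7 (K089), 45.8 (L078) and 67.1 (L081). Every *Slc37a2* KO library was above every WT library, but the groups came close to one another, with the lowest *Slc37a2* KO library at 1.12 times the highest WT library. The mean was 35.0 ± 6.99 CPM in WT and 59.2 ± 11.7 CPM in *Slc37a2* KO libraries (SD, n = 3 each). This is a ratio of 1.69, or 0.76 on the log2 scale. The means differed by 24.1 CPM. In bulk RNA, more *Msln* RNA per cell and more cells that hold it cannot be told apart.

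From high to low, the order of *Msln* levels was L081, K089 and L078 of the *Slc37a2* KO group, then L080, L082 and K090 of the WT group. Exact Poisson 95% intervals, which cover counting error only, ran from 64.1 to 70.1 CPM for L081 and from 61.7 to 67.8 CPM for K089, so this pair did not differ beyond counting error. The interval of L078 (43.8 to 47.8 CPM) lay above that of L080 (38.6 to 43.4 CPM) by a narrow margin. The intervals of L080 and L082 (34.7 to 39.0 CPM) overlapped, and K090 lay below both (25.7 to 29.0 CPM).

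**Figure D1:**
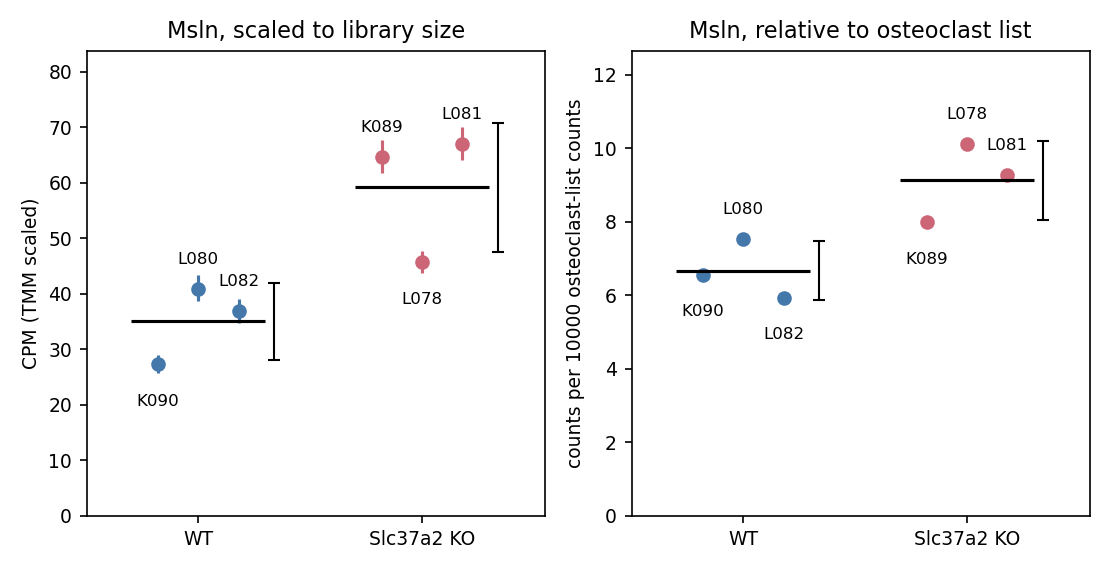
*Msln* in each library, in CPM after TMM scaling (left, with exact Poisson 95% intervals of each count) and in counts per 10000 counts of the 15-gene osteoclast list (right). Horizontal lines are group means and black bars SDs (n = 3), and on both scales all *Slc37a2* KO libraries lie above all WT libraries, by a gap of 4.81 CPM on the left.

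Leaving out 1 library at a time moved the size of the difference. Without WT library K090, the lowest, the log2 ratio of means for *Msln* was 0.61. It was 0.88 without WT library L080, the highest of its group, and 0.91 without *Slc37a2* KO library L078, the lowest of its group. The animal numbers in the headings open with K or L, letters whose meaning the sources used here do not give. Between the 2 libraries of letter K, *Msln* was 64.7 CPM in *Slc37a2* KO and 27.3 CPM in WT, a log2 ratio of 1.24. Among the 4 libraries of letter L, the log2 ratio was 0.54, and *Msln* was higher in both *Slc37a2* KO libraries than in both WT libraries.

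Among the 13483 tested genes, *Msln* ranked 171st by the size of its fitted log2 fold change and 39th when genes were ordered from the most positive value. The first rank varied with single libraries, and was 1057 without L078, 583 without K090 and 459 without L082. The log2 ratio of means of *Msln*, 0.76 with all libraries, was 0.91, 0.61 and 0.82 in these 3 cases. Without L078 or L082 the rank thus fell while the difference in *Msln* grew. Many of the 170 genes with a larger value in size were scarce, and 89 of them had a mean level below 1 CPM. Of the 8706 genes with a mean level of 10 CPM or more, 20 had a larger log2 fold change in size than *Msln*, 3 of them higher and 17 lower in *Slc37a2* KO. The 3 were *Cd99*, which encodes a surface glycoprotein, at 0.92, *Scand1* at 0.79 and *Akap17a* at 0.78. The groups overlapped for none of the 3, of which *Scand1* and *Akap17a* were named after their values were seen. Every *Slc37a2* KO library was above every WT library for 202 genes (1.5% of those tested) and below for 379 (2.81%). This balance depends on scaling, with 257 above and 277 below with DESeq2's size factors and 289 and 248 with upper quartile scaling. With no scaling beyond the library total, 156 were above and 467 below. *Msln* is one of the 202, by the way it was chosen, and stood 19th among them by fitted log2 fold change. Those ahead of it include *En2*, at 0 counts in all WT libraries and 151, 169 and 177 counts in *Slc37a2* KO, and *Umodl1* and *Cdh13*, both below 1 CPM on average. The source of the *En2* counts was not tested.

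Genes of like abundance give the spread against which *Msln* can be set. The 200 tested genes nearest to it in mean level had means between 45.6 and 48.6 CPM. Their log2 fold changes had a median of 0.00, with 95% of them between -0.25 and 0.26. *Msln*, at 0.76, was larger in size than 199 of the 200 (99.5%). The exception was *Slfn5*, a gene of the interferon response, at -0.77. *Slfn5* had 102, 55.6 and 16.2 CPM in WT and 11.4, 65.6 and 24.2 CPM in *Slc37a2* KO, so its groups overlapped widely. None of the 200 had all *Slc37a2* KO libraries above all WT libraries, and 6 had them below, next to 1.5% and 2.81% of all tested genes. *Msln* also varied more than most of these genes within a group. Its pooled SD of log2 CPM was 0.30, against a median of 0.10, and was larger than that of 91.5% of the 200. The 3 genes next above *Msln* in mean level, *Grpel2*, *Zfp598* and *Appl2*, had log2 fold changes of 0.08, 0.01 and 0.07. The 3 next below, *Nck1*, *Scrib* and *Vegfb*, had 0.03, 0.05 and 0.35.

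**Figure D2:**
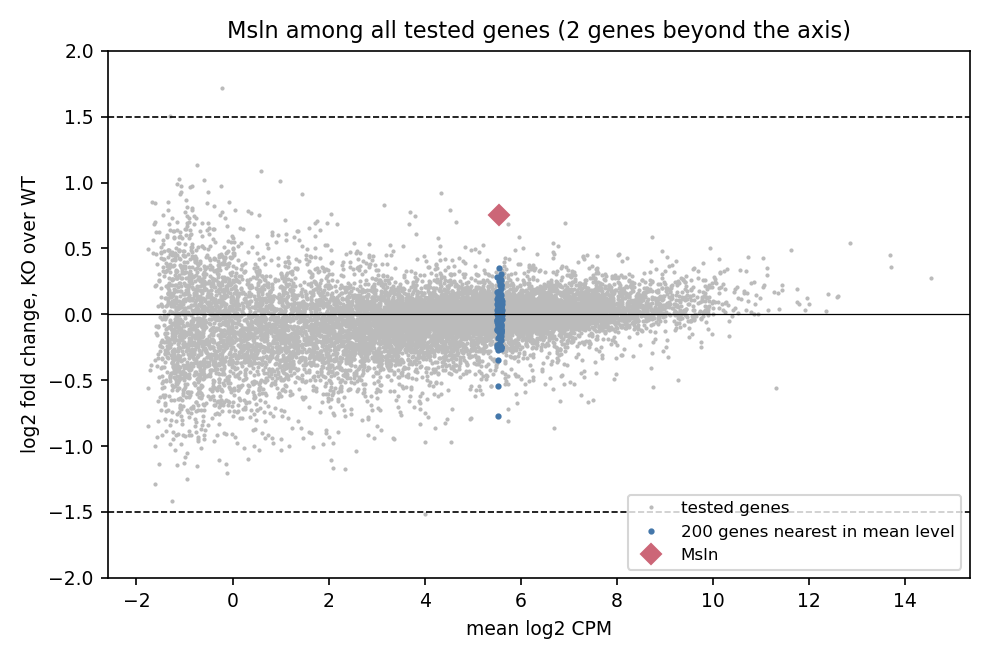
Fitted log2 fold change, *Slc37a2* KO against WT, plotted over mean log2 CPM for the 13483 tested genes (grey), the 200 nearest to *Msln* in mean level (blue) and *Msln* (red), with dashed lines at the threshold of 1.5 in either direction. *Msln* lies at 0.76, above every blue point, and inside the dashed lines, and 2 genes lie beyond the axis.

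To set *Msln* beside other genes, levels were divided by the length of all annotated exons of a gene, 3064 bases for *Msln*. *Msln* had 11.4 ± 2.28 CPM per kb in WT and 19.3 ± 3.81 CPM per kb in *Slc37a2* KO libraries (SD, n = 3 each). Of 19058 listed genes with a length, this was place 3987 in WT and place 2514 in *Slc37a2* KO, so *Msln* RNA was well above the level of most genes in both groups. All 15 genes of the osteoclast list were more abundant per kb than *Msln*, from *Ostm1*, which encodes a partner of a lysosomal chloride transporter, at 27.9 CPM per kb in WT to *Ctsk*, the collagen-degrading protease cathepsin K, at 7358 CPM per kb in WT. Among 19 GPI-anchored proteins of leukocytes, 9 were above *Msln* per kb in WT and 6 in *Slc37a2* KO. In *Slc37a2* KO libraries *Msln* thus stood near the endotoxin receptor *Cd14* (18.03 ± 3.64 CPM per kb) and the semaphorin *Sema7a* (17.98 ± 1.69 CPM per kb), differences within the SD of *Msln*.

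In GRCm38 (mm10), *Msln* is annotated at 25748613 to 25754378 of chromosome 17, a span of 5766 bases on the minus strand. The annotation gives it 9 transcripts, 4 of them protein coding. Transcripts Msln-201 and Msln-208 both have 16 exons and differ by 12 bases in the length of exon 4, and code for proteins of 629 and 625 residues. The counts are per gene and do not separate these forms. The mesothelin-like gene *Mslnl* is on the opposite strand and ends 258 bases from the end of *Msln*, with no annotated overlap. It had 4 counts over all 6 libraries together, against 9143 for *Msln*.

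Genes around *Msln* had smaller differences. Of the 20 listed genes nearest by position, 10 on each side, 11 had enough counts to test and 0 were called by edgeR or DESeq2. Their log2 fold changes ran from -0.14 (*Chtf18*, a DNA replication factor) to 0.30 (*Fbxl16*), with a median of 0.02 beside -0.02 for all tested genes. The nearest tested gene, *Rpusd1*, lies 17148 bases away and had 12.2 ± 0.39 CPM in WT and 12.4 ± 1.12 CPM in *Slc37a2* KO. On the other side *Ciao3*, a factor for the assembly of iron-sulfur proteins, had 53.4 ± 1.80 CPM in WT and 53.5 ± 7.02 CPM in *Slc37a2* KO. For none of the 11 genes were the groups apart, whereas with DESeq2's size factors or upper quartile scaling those of *Lmf1* were. Few genes had groups apart with TMM scaling, 1.5% of all tested genes with KO above WT and 2.81% with KO below.

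**Figure D3:**
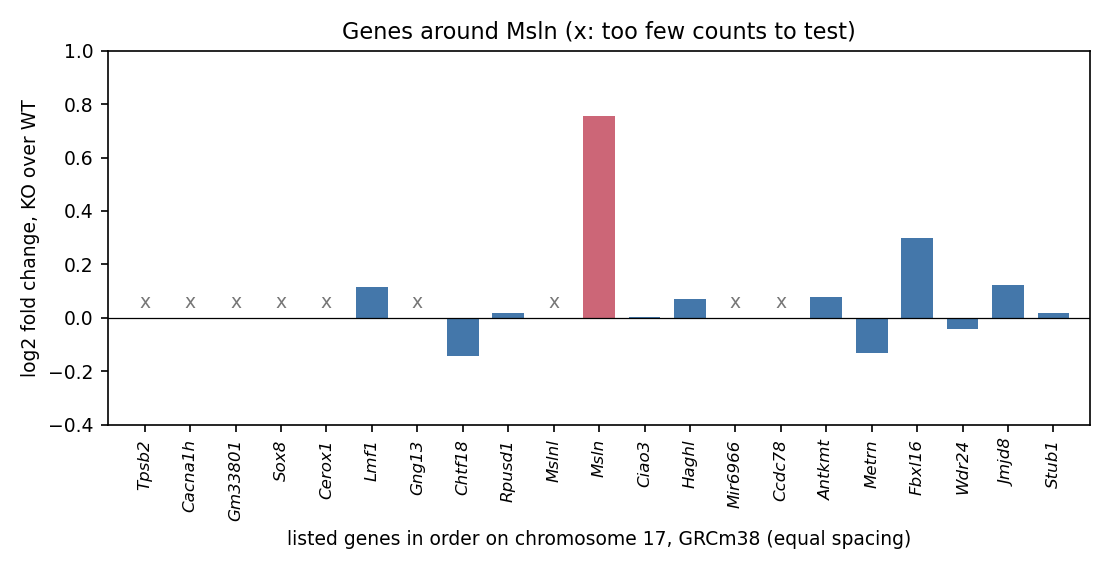
Fitted log2 fold change, *Slc37a2* KO against WT, of *Msln* (red) and the 10 listed genes on each side of it (blue), in their order on chromosome 17, with x for genes that had too few counts to test. The bar of *Msln* stands at 0.76, and those of the 11 tested neighbours lie between -0.14 and 0.30.

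Because *Msln* marks mesothelium, the RNA was examined for other mesothelial genes. Of 18 genes on a mesothelial list, 12 were in the count table and 4 had enough counts to test. Over the 6 libraries together, *Nkain4*, *Krt18* and *Calb2* had 1 count each, *Upk1b* had 2, *Lrrn4* 3 and *Muc16* 23. Its 5 genes named as defining were *Upk3b*, *Lrrn4*, *Wt1*, *Muc16* and *Krt19*. Of those in the count table, only *Krt19* had enough counts to test, at 0.18 to 1.32 CPM. The other 3 tested were *Pdpn*, *Krt7* and *Aldh1a2*, the last at 2.81 ± 1.82 CPM in WT and 2.58 ± 1.91 CPM in *Slc37a2* KO. Most of these genes are at or near 0 in the same libraries in which *Msln* had over 1000 counts. The part of mesothelial cells in the *Msln* RNA was not tested. *Upk3b*, *Wt1*, *Bnc1*, *Krt8*, *Gpm6a* and *Rspo1* have no row in the table and were not analysed here. The summed level of the list was 13.6, 16.7 and 18.8 CPM in WT, and 13.4, 20.5 and 12.3 CPM in *Slc37a2* KO. That sum was low in L081 and K089, where *Msln* was highest, and about as low in K090, where it was lowest. Its most abundant gene was *Pdpn*, the mucin-like protein podoplanin, at 7.31 ± 0.79 CPM in WT and 5.53 ± 2.13 CPM in *Slc37a2* KO. The keratin *Krt7* was the 1 member whose groups did not overlap (KO above WT, as for 1.5% of all tested genes), at 4.80, 5.48 and 4.69 CPM in WT and 6.57, 5.95 and 6.47 CPM in *Slc37a2* KO. Epithelial genes were also scarce next to *Msln*. Summed, the 10 on that list reached 3.31 to 4.66 CPM, mainly from the adhesion molecule *Epcam*, and 0 of 2 tested were called.

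The partners of mesothelin were measured next. *Furin*, the protease of the precursor, had 130, 145 and 144 CPM in WT and 134, 145 and 122 CPM in *Slc37a2* KO. The related convertase *Pcsk7* had 59.8 ± 6.15 CPM in WT and 54.9 ± 2.06 CPM in *Slc37a2* KO. *Pcsk6*, a scarce convertase, had 0.73 ± 0.40 CPM in WT and 0.35 ± 0.27 CPM in *Slc37a2* KO, a log2 fold change of -0.94. The groups of all 3 enzymes overlapped, as did those of most tested genes. *Muc16*, the binding partner, was at or below 0.29 CPM in every library, and *Otoa*, another member of the family, had 9 counts in all. Of the 10 genes of this list 4 were tested, all 4 had a negative log2 fold change, and 0 were called.

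None of the genes that build the GPI anchor of proteins such as mesothelin were called, next to 0.00742% of all tested genes. Their differences were smaller in size than that of *Msln*. All 17 listed genes of anchor synthesis were tested and 0 were called, with log2 fold changes from -0.36 to 0.19 and a median of -0.04. Of 9 genes that attach the anchor to proteins or remodel it, 0 were called, with values from -0.22 to 0.12. The summed level of the synthesis genes was 395, 404 and 386 CPM in WT and 390, 388 and 388 CPM in *Slc37a2* KO. Other GPI-anchored proteins of leukocytes summed to 788, 739 and 516 CPM in WT and 513, 739 and 542 CPM in *Slc37a2* KO. They were high in K090, L080 and L078 and low in L082, K089 and L081, a division that crosses genotype and that the macrophage genes described below share. Of the 19 on that list, 14 had a negative log2 fold change, the median was -0.28, and 0 were called. The groups of all 19 overlapped, as did those of most tested genes (apart in 1.5% with KO above WT and 2.81% below). The folate receptor *Folr2*, for example, had 24.0 ± 16.7 CPM in WT and 13.1 ± 14.9 CPM in *Slc37a2* KO, while *Prnp*, the prion protein, had 85.9 ± 13.9 and 91.3 ± 18.7 CPM.

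The label osteoclast was checked with markers, and these varied across libraries in part as *Msln* did. All 15 osteoclast genes were detected and tested, and *Mmp9*, a matrix protease, was the most abundant in CPM. The list summed to 41635, 54447 and 62061 CPM in WT, and to 81037, 45208 and 72414 CPM in *Slc37a2* KO. *Slc37a2* KO libraries K089 and L081 were the highest and WT library K090 the lowest, as for *Msln*. Library L078 departed from this, with an osteoclast sum below those of L080 and L082 but more *Msln* than either. All 15 genes had a positive log2 fold change (14 of 15 without scaling), with a median of 0.27, and 0 were called. Of all tested genes, 0.00742% were called. The 10 macrophage genes summed to 8430, 7877 and 5337 CPM in WT and to 5728, 7816 and 5861 CPM in *Slc37a2* KO, with the lysozyme gene *Lyz2* the most abundant on average, and 0 of 10 were called. L081 and K089, highest in *Msln*, were thus low in macrophage RNA, but so was WT library L082. The part of these markers in the *Msln* difference was not tested.

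Set against osteoclast RNA in place of all RNA, the difference in *Msln* was smaller. Per 10000 counts of the osteoclast list, *Msln* had 6.56, 7.52 and 5.93 counts in WT and 7.98, 10.1 and 9.26 counts in *Slc37a2* KO. The groups again did not overlap, with a log2 ratio of means of 0.45. Library L078, the lowest *Slc37a2* KO library in CPM, was the highest of all on this scale. Per 1000 counts of *Acp5*, the gene of tartrate-resistant acid phosphatase, *Msln* had 2.90, 3.38 and 2.67 counts in WT and 3.54, 4.48 and 3.98 counts in *Slc37a2* KO libraries, a log2 ratio of 0.42. Both scales were chosen after seeing the data.

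Apart from those of macrophages and stroma, markers of other cell types were scarce in the libraries that hold *Msln*. Stromal and fibroblast genes, led by *Col1a1*, summed to 920, 1377 and 1794 CPM in WT and to 795, 2022 and 716 CPM in *Slc37a2* KO, and 0 of 10 tested were called. All 10 had a negative log2 fold change (median -0.36). They were low in K089 and L081, where *Msln* was highest, and also in K090, where it was lowest. Osteoblast genes summed to between 16.2 and 26.2 CPM, endothelial genes to between 3.64 and 6.32 CPM and neutrophil genes to between 0.35 and 1.41 CPM. In each of these lists 0 were called, next to 0.00742% of all tested genes. The 5 osteoblast genes tested all had a negative log2 fold change (median -0.11), as did the 3 endothelial genes (median -0.29). The part of these cells in the *Msln* difference was not tested. The 3 listed B lymphoid genes reached at most 0.27 CPM together, and none had enough counts to test. Megakaryocyte and platelet genes, of interest because of the fragment cleaved from mesothelin, summed to between 5.97 and 10.3 CPM, mainly from *Pf4*, with 0 of 3 tested called. *S100a8*, a granule gene of neutrophils, was the other list member whose groups did not overlap (KO below WT, as for 2.81% of all tested genes), with 112 counts in all, at 0.83, 0.60 and 0.71 CPM in WT and 0.29, 0.49 and 0.32 CPM in *Slc37a2* KO.

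In other tissues *Msln* has been linked to Wnt signals and to the YAP and TEAD transcription factors, so genes of these pathways were listed too. Of 8 Wnt target genes tested, 0 were called and the median log2 fold change was -0.06. *Notum*, an enzyme that inactivates Wnt proteins, had the largest of them, with 0.83 ± 0.49 CPM in WT and 1.30 ± 0.31 CPM in *Slc37a2* KO. Of 8 genes of the YAP and TEAD list, which holds *Yap1*, *Wwtr1* and *Tead1* themselves beside 5 others, 0 were called and the median was -0.31. Led by *Ccn2*, they summed to 141, 290 and 374 CPM in WT and to 155, 365 and 133 CPM in *Slc37a2* KO. The 3 libraries with the least of this RNA, L081, K090 and K089, were the pair with the most *Msln* and the library with the least. Among all tested genes edgeR called 0.00742%. Over all 17 lists, the 20 neighbours included, 129 genes were tested and 0 were called by edgeR or DESeq2. With TMM scaling the groups of 2 did not overlap, 1 in each direction (0.775% each), next to 1.5% above and 2.81% below among all genes. With the 3 other scalings the list members' share above was larger than that of all genes. Of the 129, 3 (2.33%), *Dpm2*, *Krt7* and *S100a8*, had an unadjusted p below 0.05 in edgeR's test, as did 96 (0.712%) of all 13483 genes.

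The genes whose log2 CPM followed *Msln* most closely over the 6 libraries were *Emc8*, a subunit of a complex that inserts proteins into the endoplasmic reticulum membrane (Pearson's r of 0.983), and *Ptprs*, a receptor tyrosine phosphatase (0.980). Then came *Ltbp3*, a binding protein of latent TGF-beta (0.972), *Klhl17* (0.970), *Rab5b*, a GTPase of early endosomes (0.968), *Dnah2* (0.968), *Gm14325* (0.964) and *9930021J03Rik* (0.964). The points are 6 libraries that all genes share, and the 8 genes are the highest among the 13483 tested. Their own differences were much smaller than that of *Msln*, with log2 fold changes from 0.07 for *Emc8* to 0.35 for *Dnah2*. *Ltbp3*, for example, had 42.3, 54.9 and 52.0 CPM in WT and 66.7, 53.1 and 64.2 CPM in *Slc37a2* KO. Like *Msln* it was lowest in K090 and highest in K089 and L081, but its groups overlapped. For 5 of the 8, *Ptprs*, *Rab5b*, *Dnah2*, *Gm14325* and *9930021J03Rik*, they did not, and each *Slc37a2* KO library was above each WT library. That held for 1.5% of all tested genes, but likeness to *Msln* favours it.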

How the data were processed

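The authors deposited whole-number counts of reads per gene for 6 libraries, not normalized, in a table headed by genotype and animal number. The submitters' processing notes name bcl2fastq 2.20.0.422, edgeR 3.30.3 and mm10, while for the aligner and the counting tool the sources used here give no name. Columns of the authors' own comparison (fold change, mean level, likelihood ratio, p and FDR) were not used.

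Genes were filtered with filterByExpr, scaled by TMM and fitted with glmQLFit and glmQLFTest in edgeR 4.0.16 (R 4.3.3, limma 3.58.1), with Benjamini-Hochberg adjustment over 13483 genes. DESeq2 1.42.0 served as an alternative. Figures were drawn with matplotlib 3.10.9 in Python 3.11.15. The script was tested on simulated data. Correlations used log2 CPM with a prior count of 2. Coordinates and transcripts come from GENCODE M21 and neighbours and their distances from RefSeq (GRCm38.p6). Exon lengths were found for 84.3% of listed symbols.

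Named were *Msln*, *Slc37a2*, called genes, list members, neighbours, the 8 most similar genes, the 3 next on each side in level, the 10 nearest above in size of change and the 10 with the largest non-overlapping increase. *Slfn5* is among the 10 nearest above. *Msln* and the lists were chosen with earlier results of these data known. Each p-value rests on the spread between these animals and on counting error, with each gene's spread moderated towards that of other genes.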

Additional observations from a re-analysis of the deposited data

How the results depend on the processing

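The log2 ratio of *Msln* was above 0 under all 16 alternatives, and its groups did not overlap under any of the 4 scalings. It moved from 0.76 by more than the spread between libraries for letter K alone (1.24), relative to the osteoclast list (0.45) and relative to *Acp5* (0.42), 3 settings chosen after seeing the data, as was letter L alone. Leaving out 1 library gave 0.61 to 0.91. The rank of 171 became 265 with no scaling beyond the library total, 5615 of 22601 genes with no filter, since scarce genes then enter, and 84 with at least 1 CPM in 3 libraries. It ran from 138 to 1057 with 1 library left out, with 1057 without L078, 583 without K090 and 459 without L082.

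The share of genes of like abundance with a smaller change, 99.5%, was 100% with upper quartile scaling, with DESeq2's size factors and with 100 genes, and ran from 95.5% (without L078) to 100% with 1 library left out. Genes called numbered 2 and not 1 with no filter, with edgeR's likelihood ratio test and with DESeq2's Wald test, *En2* being the addition each time. With 1 library left out, 1 was called each time. Non-overlapping list members numbered 4 and not 2 under each other scaling, adding *Pigh* and *Lmf1* with DESeq2's size factors and upper quartile scaling, and *Pigt* and *Egfl7* with no scaling beyond the library total. The shares above and below were 2.33% and 0.775% of list members next to 1.91% and 2.05% of all genes with DESeq2's size factors, next to 2.14% and 1.84% with upper quartile scaling, and 2 of 129 each next to 1.16% and 3.46% with no scaling beyond the library total. The last 2 scalings were added for this count after seeing the data. Of the 8 genes most like *Msln*, 5 were shared with DESeq2's size factors. The causes were not tested. No paired analysis was possible because the columns carry no replicate number. With the letter of the animal number, which pairs no libraries by itself, as a second term, 1 gene was called, *Slc37a2*.

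With 3 libraries a group, and *Msln* chosen on these values, its difference has no independent check here. The counts neither separate its transcripts nor say which cells hold its RNA.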
